A study of Mus musculus with 12 samples.

Results

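The 8 genes described here are Mecom, Hlf, Prdm16, Mllt3, Mycn, Gfi1, Etv6 and Zbtb16, transcription and chromatin factors known for maintaining hematopoietic stem cells. They were taken by symbol from the 43279 rows of the deposited table of normalised read counts, and all 8 were present. Of these, 7 were among the 13358 genes tested between genotypes, and Zbtb16 had too few reads. The libraries came from Lin- KIT+ SCA-1+ FLT3- CD48- bone-marrow cells of naive adult mice, 1000 cells and 1 library per mouse, with 5 Osmr-/- mice (numbered 1, 2, 3, 5 and 6) and 6 WT mice (numbered 1 to 6) of the C57BL/6 strain. The labels give neither an age in weeks nor the strain background of the Osmr-/- mice. They name no cell-type-specific allele, so the sorted cells and the marrow around them are both labelled as lacking Osmr, the receptor chain for oncostatin M. The sample labelled Osmr-/- 4 was not analysed here.

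A stem cell divides and keeps 1 daughter in the stem-cell state only while a small network of transcription factors stays active, and these genes are part of it. Mecom and Prdm16 encode related zinc-finger proteins of the PRDM family, and Hlf encodes a basic leucine zipper protein of the PAR family whose expression marks long-term stem cells. Mllt3 (AF9) is a histone reader that couples transcription elongation to stem-cell genes, and Mycn is a MYC-family factor that drives growth. Gfi1, Etv6 and Zbtb16 (PLZF) are mainly repressors, and each is needed for a normal adult stem-cell pool.

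The libraries held 9.50 to 11.2 M reads (M for mega) in Osmr-/- mice and 9.89 to 22.1 M reads in WT mice. Osmr itself had 4 reads over the Osmr-/- libraries and 13 reads over the WT libraries, too few to check the genotype labels. The labelled cell type was checked on 12 surface genes of the sort and of stem cells, all of which were tested: Kit (3666 to 5183 normalised counts in Osmr-/-, 3312 to 4512 in WT) and Ly6a, which encodes SCA-1 (5070 to 9513 in Osmr-/-, 3297 to 7077 in WT), were abundant in every library. Flt3 and Cd48 transcripts were present although the sort selected against both proteins, with 229 to 573 normalised counts of Flt3 in Osmr-/- and 323 to 735 in WT. Cd48 had 512 to 1413 in Osmr-/- and 275 to 1446 in WT. Summed counts of 15 erythroid genes were lower in every Osmr-/- library (12415 to 19468) than in any WT library (20097 to 63075). The WT sums were 55692 to 63075 in WT 1 to 3 and 20097 to 22677 in WT 4 to 6. Car2, the gene of that list with the highest median in both genotypes, overlapped, at 8959 to 14923 in Osmr-/- and 14585 to 41773 in WT. The sum of 15 mitotic genes was 5858 to 12295 in Osmr-/- and 10502 to 17092 in WT. In 1 library, Osmr-/- 3, a list of 15 granulocyte and monocyte genes summed to 29497 normalised counts, against 3686 to 6441 in the other 10. Libraries numbered 4 to 6 stood apart from those numbered 1 to 3 in both genotypes. The labels give no batch for these numbers.

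None of the 7 tested factors passed the threshold between genotypes (adjusted p under 0.05 over all 13358 tested genes, limma with Benjamini-Hochberg adjustment). Across all tested genes the same test called 3 genes, which is 0.0225%. Mycn stood closest, with 1343 ± 694 normalised counts in Osmr-/- (SD, n = 5) and 698 ± 139 in WT (SD, n = 6). It was also the single factor at an unadjusted p under 0.05, a level reached by 18% of all tested genes. On the recovered reads, edgeR called none of the 7 and 0.015% of all genes tested, and DESeq2 called none of the 7 and 4.27%. Fold changes lay above 0 for 5 of the 7 and below 0 for 2, and their median was 0.16 on the log2 scale. Over all tested genes the median was -0.05, and 6254 of them were above 0 and 7104 below. These are bulk libraries, so fewer cells expressing a gene and less RNA per cell cannot be told apart.

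**Figure D1:**
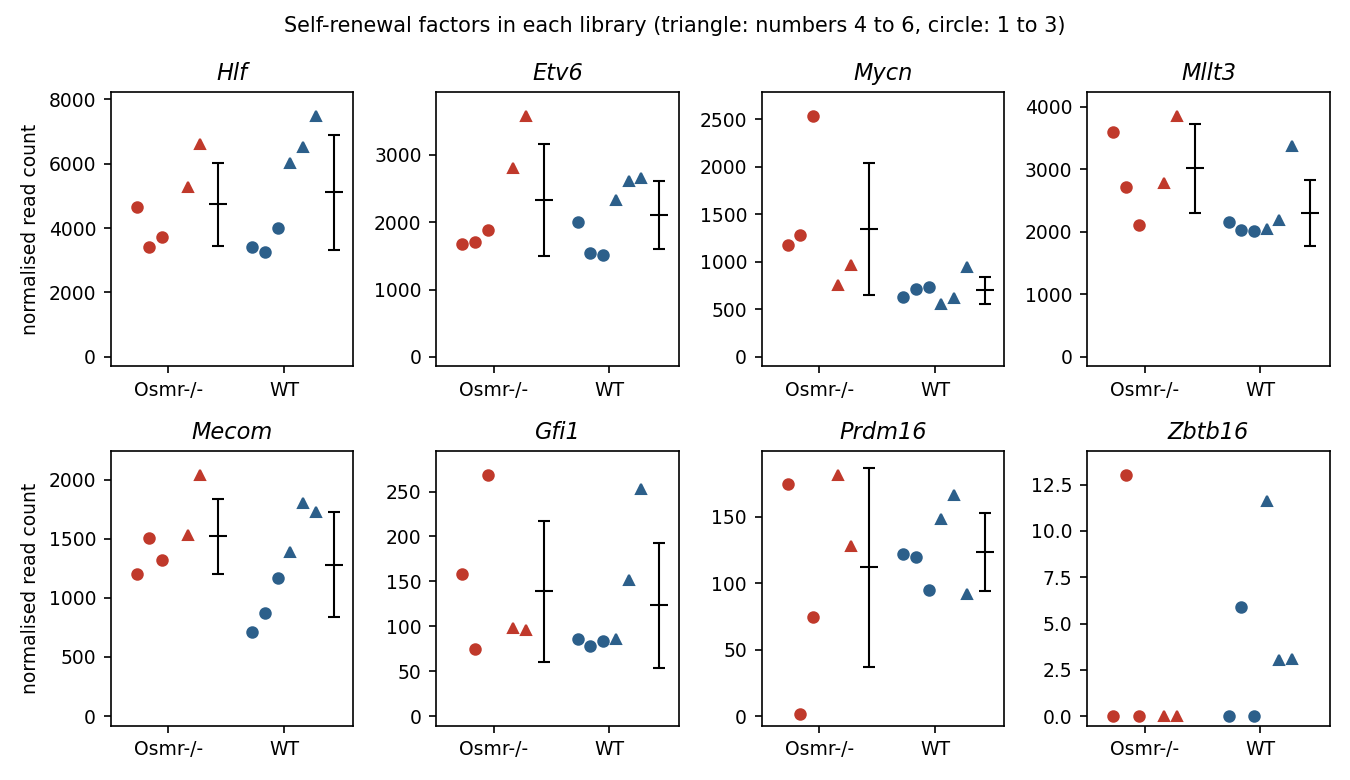
Normalised read count (y axis, linear) of each factor in every library, Osmr-/- in red and WT in blue, ordered by level per kilobase. Triangles are libraries numbered 4 to 6 and circles those numbered 1 to 3; black bars are the mean and SD (n = 5 Osmr-/-, n = 6 WT), not drawn for Zbtb16. The groups overlapped for all 8 factors, and 4 of the 5 Mycn values in Osmr-/- lay above every WT value.

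Per kilobase of annotated exon, the factors differed widely in level. Hlf had the highest level over the 11 libraries, 740 ± 227 normalised counts per kilobase (SD, n = 11), followed by Etv6 (369 ± 109), Mycn (301 ± 171), Mllt3 (219 ± 57.7), Mecom (112 ± 31.8), Gfi1 (40.9 ± 22.1), Prdm16 (12.7 ± 5.60) and Zbtb16 (0.631 ± 0.919). By genotype, the Hlf level was 709 ± 193 per kilobase in Osmr-/- (SD, n = 5) and 766 ± 268 in WT (SD, n = 6). Mycn stood at 408 ± 211 per kilobase in Osmr-/- and 212 ± 42.3 in WT. Hlf was above Etv6 in 11 of 11 libraries, and the steps at Mllt3 over Mecom, Mecom over Gfi1 and Gfi1 over Prdm16 also held in 11 of 11. The order of Etv6, Mycn and Mllt3 was not fixed: Etv6 exceeded Mycn in 8 of 11 libraries and Mycn exceeded Mllt3 in 8 of 11. Divided by the longest transcript instead of all exons, Mllt3 stood at 432 and Mecom at 244 per kilobase, and Mycn exceeded Mllt3 in 2 of 11 libraries.

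Mecom is essential for long-term stem cells, and its protein EVI1 recruits the CTBP corepressors. It had 1205, 1509, 1320, 1531 and 2038 normalised counts in Osmr-/- libraries 1, 2, 3, 5 and 6, against 715 to 1808 in WT with a median of 1279. The groups overlapped, with 1 Osmr-/- library above every WT library and 4 of 5 above the WT median. The log2 fold change was 0.30 (SE 0.26, 95% interval -0.26 to 0.87), with an adjusted p of 0.572 by limma, and with single libraries left out it ran from 0.15 (without WT 1) to 0.42 (without WT 5). Within libraries numbered 1 to 3 the groups did not overlap, at 1205 to 1509 in Osmr-/- and 715 to 1170 in WT, and the log2 fold change of 0.57 had an adjusted p of 0.228 by limma. In that set 13.5% of all tested genes were likewise without overlap with Osmr-/- higher and 15.5% with Osmr-/- lower. Within numbers 4 to 6 Mecom overlapped, at 1531 to 2038 in Osmr-/- and 1389 to 1808 in WT, and its log2 fold change was 0.11 (adjusted p 0.901 by limma). Over all libraries, genes whose genotypes did not overlap made up 1.09% of tested genes with Osmr-/- higher and 1.42% with Osmr-/- lower, and none of the 7 factors was among them. Mecom lies on chromosome 3 from 29951296 to 30548008 on the minus strand (GENCODE M21, GRCm38).

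Prdm16, a histone methyltransferase homologue that limits oxidative stress and cell death in stem cells, had 174, 1.18, 74.8, 181 and 128 normalised counts in Osmr-/- libraries 1, 2, 3, 5 and 6, against 92.0 to 166 in WT with a median of 120. The value in Osmr-/- 2 was a single read. In the same library the related Mecom had 1509 normalised counts, the middle value of its group. The log2 fold change of Prdm16 was -1.06 (SE 0.92, 95% interval -3.02 to 0.89) with an adjusted p of 0.569 by limma, and it was 0.12 without Osmr-/- 2. That library weighed less on the count scale, where the means were 112 in Osmr-/- and 124 in WT. DESeq2 gave -0.14 and edgeR -0.15 for all 11 libraries (edgeR adjusted p 0.949). Its spread in Osmr-/- (SD 2.70 on the log2 scale) exceeded that of 95.6% of tested genes. In WT its SD was 0.34, larger than that of 11.9% of tested genes. Prdm16 lies on chromosome 4 from 154316125 to 154636873 on the minus strand.

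The RefSeq windows around gene starts (250 bases before and 50 after, GRCm38.p6) held 10 windows for 7 of the factors among 32851 in all. They are shown for Mecom and Prdm16 because a window of each of these paralogous genes holds the same run of 24 bases just after its RefSeq start. Capitals mark that run, which covers bases 27 to 50 after the start in Mecom (chr3:30509710-30510009, minus strand) and 10 to 33 in Prdm16 (chr4:154636824-154637123, minus strand).
Mecom: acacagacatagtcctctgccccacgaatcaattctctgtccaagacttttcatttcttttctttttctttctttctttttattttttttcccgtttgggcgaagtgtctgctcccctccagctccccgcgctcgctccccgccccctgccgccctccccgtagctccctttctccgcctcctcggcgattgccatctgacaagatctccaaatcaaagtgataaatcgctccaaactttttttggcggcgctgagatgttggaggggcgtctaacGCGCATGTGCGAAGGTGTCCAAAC
Prdm16: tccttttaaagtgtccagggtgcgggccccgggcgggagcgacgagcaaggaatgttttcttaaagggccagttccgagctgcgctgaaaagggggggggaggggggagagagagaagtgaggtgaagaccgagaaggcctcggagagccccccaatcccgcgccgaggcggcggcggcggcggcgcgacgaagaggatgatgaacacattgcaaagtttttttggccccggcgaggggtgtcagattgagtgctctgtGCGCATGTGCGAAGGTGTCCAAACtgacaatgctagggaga
No window other than these 2 of the 32851 held the run. The GENCODE M21 gene of Mecom starts at 30548008 on the minus strand, so the RefSeq start shown here lies inside that gene. The other Mecom window (chr3:30013155-30013454) shared a run of at most 7 bases with the Prdm16 window. Among the 42 pairs of windows from different factors the next-longest shared run was 12 bases, and the median was 9. Over the 11 libraries the log2 levels of Mecom and Prdm16 had a Pearson r of -0.10 and a Spearman rho of 0.17. These points share library and depth, and the single read in Osmr-/- 2 is one of them.

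Hlf had 4657, 3408, 3714, 5290 and 6614 normalised counts in Osmr-/- libraries 1, 2, 3, 5 and 6, against 3269 to 7481 in WT with a median of 5014. All 5 Osmr-/- values lay inside the WT range, and 2 were above the WT median. On the log2 scale the fold change was -0.08 (SE 0.27, 95% interval -0.65 to 0.49; adjusted p 0.914 by limma). Its direction was not fixed: it was 0.14 within numbers 1 to 3 and -0.17 within numbers 4 to 6. Hlf lies on chromosome 11 from 90336536 to 90390895 on the minus strand.

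Mllt3 encodes a YEATS-domain protein that binds acylated histones and links the super elongation complex and DOT1L to its targets, and in human cells it supports stem-cell maintenance in culture. It had 3600, 2722, 2110, 2782 and 3850 normalised counts in Osmr-/- libraries 1, 2, 3, 5 and 6, against 2004 to 3373 in WT with a median of 2102. All 5 Osmr-/- libraries were above the WT median and 2 of them above every WT library. In WT, 5 of 6 libraries lay between 2004 and 2188, and WT 6 stood alone at 3373. Mllt3 had a log2 fold change of 0.38 (SE 0.22, 95% interval -0.07 to 0.84), with a p of 0.0948 and an adjusted p of 0.370 by limma. It was 0.41 within numbers 1 to 3 and 0.40 within numbers 4 to 6. Mllt3 lies on chromosome 4 from 87769925 to 88033364 on the minus strand.

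Mycn acts with Myc in stem-cell survival and proliferation. It had 1175, 1285, 2531, 757 and 969 normalised counts in Osmr-/- libraries 1, 2, 3, 5 and 6, against 627, 710, 734, 554, 613 and 948 in WT libraries 1 to 6. Every Osmr-/- library was above the WT median of 669, and 4 of 5 were above the highest WT library. The groups overlapped through Osmr-/- 5 and WT 6. The log2 fold change was 0.84 (SE 0.28, 95% interval 0.23 to 1.44), a fold of 1.79, with a p of 0.00965 and an adjusted p of 0.156 by limma. A lower p was found for 6.18% of tested genes. DESeq2 gave 0.94 (adjusted p 0.0536), and the authors' deposited table, with its sign turned to Osmr-/- over WT, gives 0.85 (adjusted p 0.0518). That table calls 4.46% of its genes with an adjusted p, and none of the 8 factors. The WT spread of Mycn was small, with a log2 SD of 0.27, larger than that of 6.15% of tested genes.

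The difference in Mycn was uneven over the libraries. Within numbers 4 to 6 the genotypes overlapped, at 757 and 969 normalised counts in Osmr-/- and 554 to 948 in WT, with a log2 fold change of 0.32. Within numbers 1 to 3 they did not overlap, at 1175 to 2531 in Osmr-/- and 627 to 734 in WT, a separation with Osmr-/- higher that 13.5% of all tested genes had in that set, and the log2 fold change was 1.18 (adjusted p 0.0957 by limma). The difference between these 2 effects was -0.86 on the log2 scale and did not pass (adjusted p 0.577 by limma). No tested gene passed that test in limma (0%, with 1316 at an unadjusted p under 0.05). DESeq2 on the recovered reads called 186 genes with a higher signed log2 fold change in numbers 4 to 6 and 83 with a lower one. These counts go by sign, so a decrease that was weaker in numbers 4 to 6 counts as higher. In a model with a term for the number sets, the log2 fold change of Mycn was 0.80 with an adjusted p of 0.0980 by limma. That model called none of the 7 factors and 2.52% of tested genes.

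The highest Mycn value, in Osmr-/- 3, fell in the library with the high granulocyte signal. There S100a8 had 10780 normalised counts, S100a9 7277, Camp 5197 and Ngp 1540, all of them genes of maturing neutrophils. S100a8 ran from 19.4 to 346 in the other 10 libraries. Of the early granule genes, Elane had 63.2, Mpo 11.6 and Prtn3 4193 in Osmr-/- 3, and Prtn3 stood at 3207 to 5522 in the other 10. Of the list of 15, only Ctsg had no reads in any library. Ly6g and Cebpe, also genes of that list, had none in any Osmr-/- library, Osmr-/- 3 included. Without Osmr-/- 3 the log2 fold change of Mycn was 0.58 with an adjusted p of 0.330 by limma, and with any other single library left out it stayed between 0.78 and 1.01. The other 4 Osmr-/- libraries had sums over the list of 5140 to 6441, against 3686 to 5869 in WT, most of it from Prtn3. Without Prtn3 the sum was 25304 in Osmr-/- 3 and 545 to 1309 in the other 4 Osmr-/- libraries, against 299 to 721 in WT. The part of this granulocyte signal in the Mycn difference was not tested.

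**Figure D2:**
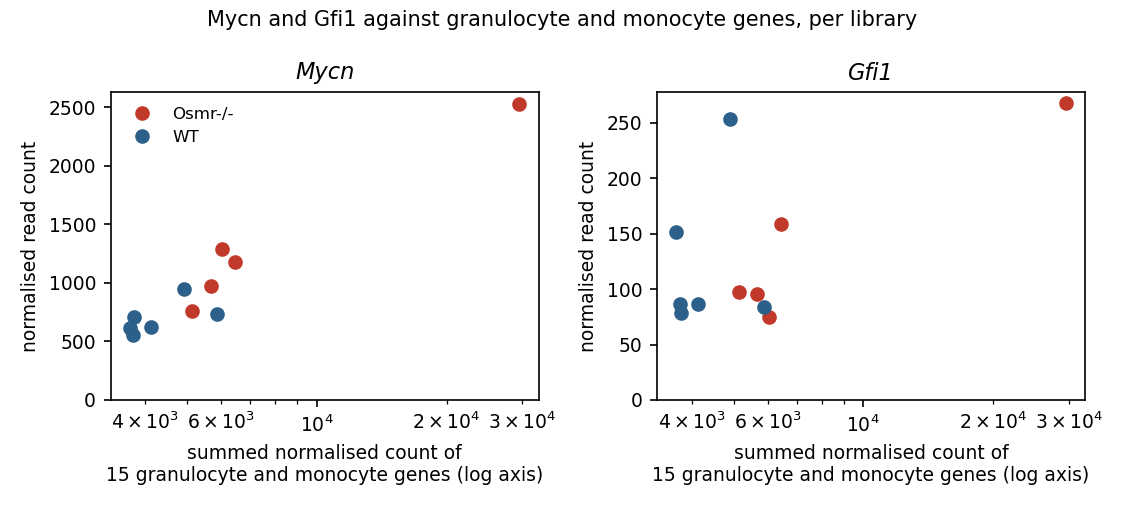
Normalised read count of Mycn (left) and Gfi1 (right) against the summed normalised count of 15 granulocyte and monocyte genes (x axis, log scale), 1 point per library, Osmr-/- in red and WT in blue. Osmr-/- 3, at a sum of 29497, was the highest library for both genes.

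The window around the Mycn start (chr12:12941787-12942086, minus strand) is shown because it was the one factor window of 10 with a match to the E2F motif TTGGCGC, searched on both strands. Capitals mark both matches, which begin 182 and 167 bases before the start.
Mycn: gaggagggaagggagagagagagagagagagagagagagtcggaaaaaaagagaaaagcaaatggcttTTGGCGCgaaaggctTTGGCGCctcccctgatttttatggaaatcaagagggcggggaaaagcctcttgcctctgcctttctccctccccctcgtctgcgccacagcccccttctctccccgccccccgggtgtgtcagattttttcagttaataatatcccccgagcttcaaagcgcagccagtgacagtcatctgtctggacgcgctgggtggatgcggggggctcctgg
This motif was found in 2.45% of all 32851 windows. The STAT motif TTCNNNGAA, searched because oncostatin M signals through STAT proteins, was found in 1 of the 10 factor windows (Etv6, beginning 22 bases after the start) and in 8.30% of all windows. The E-box CACGTG, bound by MYC with MAX, was found in 0 of 10 and in 7.15% of all windows. GATAA was found in 2 of 10, both of them Mecom windows, and in 25.4% of all. The ETS motif CCGGAAG was found in 1 of 10, a Gfi1 window, and in 8.86% of all. Mycn lies on chromosome 12 from 12936093 to 12941914 on the minus strand.

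Gfi1 encodes a zinc-finger repressor that acts through the CoREST complex, restrains stem-cell division and is also high in developing neutrophils. It had 159, 74.5, 268, 97.8 and 95.6 normalised counts in Osmr-/- libraries 1, 2, 3, 5 and 6, against 78.2 to 253 in WT with a median of 86.2. Both groups held 1 library far above their medians, Osmr-/- 3 at 268 and WT 6 at 253, and the groups overlapped. The log2 fold change was 0.16 (SE 0.46, 95% interval -0.81 to 1.14), with an adjusted p of 0.889 by limma. It was 0.82 within numbers 1 to 3, -0.62 within numbers 4 to 6 and -0.11 without Osmr-/- 3. Gfi1 lies on chromosome 5 from 107716657 to 107726036 on the minus strand.

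Etv6 encodes an ETS-family repressor needed for survival of stem cells in adult bone marrow. It had 1679, 1702, 1883, 2799 and 3578 normalised counts in Osmr-/- libraries 1, 2, 3, 5 and 6, against 1516 to 2651 in WT with a median of 2162. The Osmr-/- libraries fell into 3 near the low end of the WT range and 2 above all of it. The log2 fold change was 0.11 (SE 0.25, 95% interval -0.43 to 0.65), with an adjusted p of 0.858 by limma, and it was -0.06 without Osmr-/- 6. Within numbers 4 to 6 the genotypes did not overlap, at 2799 and 3578 in Osmr-/- and 2328 to 2651 in WT, with a log2 fold change of 0.32 (adjusted p 0.641 by limma). Of all tested genes, 14.4% were without overlap in that set with Osmr-/- higher and 13.7% with Osmr-/- lower. Within numbers 1 to 3 it was 0.07. Etv6 lies on chromosome 6 from 134035700 to 134270158 on the plus strand.

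Zbtb16, which directs innate-like lymphocytes and restrains stem-cell cycling, was close to absent. It had 13.0 normalised counts in Osmr-/- 2 (11 reads) and no reads in the other 4 Osmr-/- libraries, against 5.88, 11.6, 3.03 and 3.10 in WT 2, 4, 5 and 6 (28 reads in all) and none in WT 1 and 3. Reads were thus present in 1 of 5 Osmr-/- and 4 of 6 WT libraries. The log2 difference was -0.99, with an exact two-sided permutation p of 0.340 over all 462 assignments of 11 libraries to groups of 5 and 6. The difference was -2.57 within numbers 4 to 6, where the 2 Osmr-/- libraries had no reads, and 0.34 within numbers 1 to 3. With single libraries left out it ran from -0.60 (without WT 4) to -1.75 (without Osmr-/- 2). The permutation test thus detected no difference, and reads this few limit what it could detect. Osmr-/- 2, the library with a single Prdm16 read, thus held the highest Zbtb16 value.

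**Figure D3:**
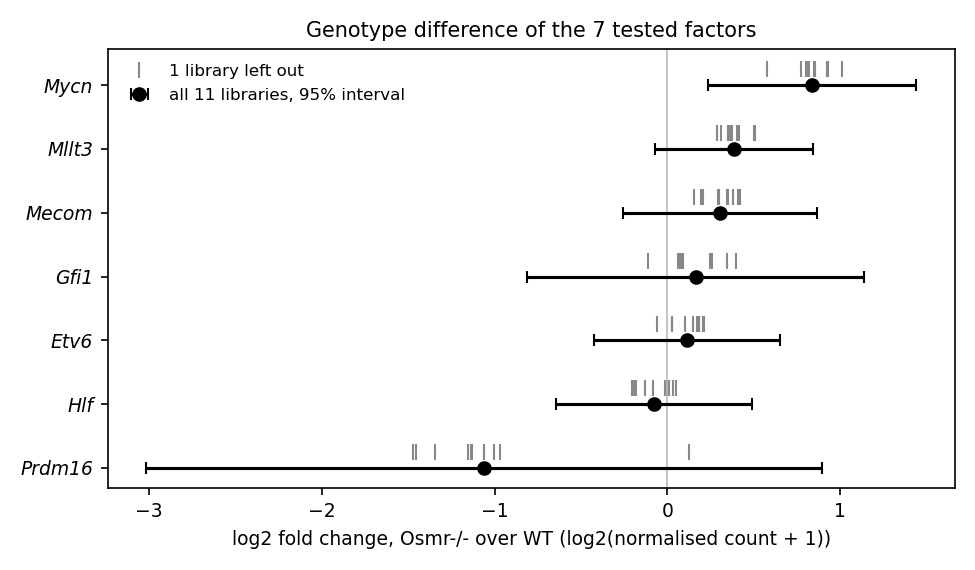
Log2 fold change of Osmr-/- over WT (x axis) for the 7 tested factors; dots are the estimates with 95% intervals from limma over all 11 libraries, and grey ticks are the estimates with 1 library left out. The interval of Mycn (0.23 to 1.44) lay above 0, and the estimate of Prdm16 turned from -1.06 to 0.12 when Osmr-/- 2 was left out.

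Hlf and Etv6 were higher in libraries numbered 4 to 6 than in those numbered 1 to 3. These sets were drawn from the expression values of the same libraries, so p-values between them describe the split and are not independent evidence of it. Hlf averaged 6388 ± 807 normalised counts in numbers 4 to 6 (SD, n = 5) and 3742 ± 522 in numbers 1 to 3 (SD, n = 6), and the sets did not overlap, at 5290 to 7481 in numbers 4 to 6 and 3269 to 4657 in numbers 1 to 3. Sets without overlap were found for 2.76% of all tested genes with numbers 4 to 6 higher and 2.47% with numbers 4 to 6 lower. With genotype in the model the log2 difference was 0.77 (SE 0.15, adjusted p 0.0120 by limma). Etv6 averaged 2795 ± 470 in numbers 4 to 6 (SD, n = 5) and 1719 ± 190 in numbers 1 to 3 (SD, n = 6), again without overlap, with a log2 difference of 0.71 (SE 0.15, adjusted p 0.0165 by limma). Both passed in each of 22 alternatives, with the highest adjusted p at 0.0357 for Hlf and 0.0480 for Etv6.

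Mecom averaged 1699 ± 251 in numbers 4 to 6 (SD, n = 5) and 1131 ± 292 in numbers 1 to 3 (SD, n = 6), and its log2 difference of 0.65 had an adjusted p of 0.0517 by limma, just over the threshold. The other 4 tested factors had adjusted p-values of 0.387 to 0.818 by limma. Thus 2 of 7 factors were called higher in numbers 4 to 6, where 2.61% of all tested genes were called higher and 4.69% lower, 7.29% in all. The nuclear RNA Malat1 moved with these sets too, at 130004 to 230983 normalised counts in numbers 4 to 6 and 9975 to 109658 in numbers 1 to 3. Its part in the difference was not tested. In the model that holds both sets and genotype, the genotype log2 fold change was 0.18 for Etv6 (adjusted p 0.511), 0.37 for Mecom (adjusted p 0.270) and 0.41 for Mllt3 (adjusted p 0.220), all by limma.

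**Figure D4:**
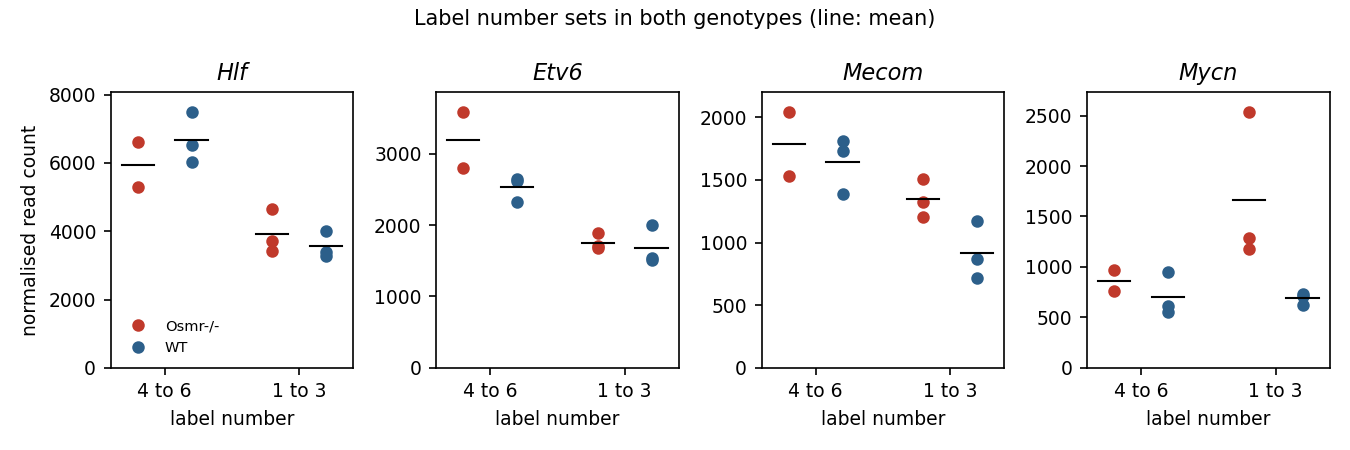
Normalised read count (y axis) of Hlf, Etv6, Mecom and Mycn in libraries numbered 4 to 6 and 1 to 3, Osmr-/- in red and WT in blue; lines are the means of each group of libraries. Hlf and Etv6 were higher in numbers 4 to 6 in both genotypes without overlap. Between genotypes, Mycn and Mecom did not overlap in numbers 1 to 3, and Etv6 did not in numbers 4 to 6. Osmr-/- was higher in each of these, a separation found for 13.5% of all tested genes in numbers 1 to 3 and 14.4% in numbers 4 to 6.

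Over the 11 libraries, 16 of the 21 pairs of tested factors had a Pearson r above 0 between their log2 levels, with a median of 0.32. The highest was Hlf with Etv6 (r = 0.81, rho = 0.73), followed by Hlf with Mecom (r = 0.77, rho = 0.83). Without the 2 libraries farthest from the median, these were 0.78 and 0.68. Within the 6 libraries numbered 1 to 3 they were -0.18 and 0.36, and over all 11 libraries, after the mean of each number set was taken off, -0.03 and 0.40. By Pearson r, Mycn paired best with Gfi1 (r = 0.57, rho = 0.31), at 0.51 without Osmr-/- 2 and Osmr-/- 3, and by rho with Mllt3 (r = 0.25, rho = 0.45). It paired lowest with Prdm16 (r = -0.38, rho = -0.43), at -0.04 without these libraries. All these points share library, depth and preparation.

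The genes whose log2 levels followed each factor most closely over the 11 libraries were named by the highest Pearson r among all tested genes. For Mycn these were Ankrd17 and Zfc3h1 (r = 0.95 each, rho = 0.91 and 0.94), and the values stayed at 0.92 and 0.90 without Osmr-/- 2 and Osmr-/- 3. Ankrd17 had a log2 fold change of 0.73 and Zfc3h1 of 0.67 (adjusted p 0.137 and 0.172 by limma). For Hlf they were Slco3a1 and Pop1 (r = 0.94 each), for Etv6 Gja1 and Xkr6 (r = 0.96 each), and for Mecom the nuclear RNA Neat1 (r = 0.94) and Gm22956 (r = 0.96). Slco3a1, Gja1 and Neat1 also differed between number sets, with log2 differences of 1.09, 1.12 and 0.70 (adjusted p 0.00935, 0.0413 and 0.0474 by limma). Pop1, Xkr6 and Gm22956 did not pass (adjusted p 0.106, 0.0679 and 0.130 by limma), and 7.29% of all tested genes did. All were picked for following Hlf, Etv6 or Mecom, whose means were higher in numbers 4 to 6. Their set differences are therefore not independent of that pick. A high r is in part a result of picking the best of all tested genes. Mllt3 was followed by Eltd1 (r = 0.92) and Akap10 (r = 0.91), and Gfi1 by Nkrf (r = 0.92) and Traf3 (r = 0.89). Prdm16 was followed by Rabgef1 and Lgalsl (r = 0.96 each), but without Osmr-/- 2 and Osmr-/- 3 these were 0.55 and 0.38, so they rest on those libraries.

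Relatives of the factors within their protein families mostly had values below 0 for Osmr-/- over WT. Of 10 tested paralogues, 3 were above 0 and 7 below, and the median of their log2 fold changes was -0.46. Limma and edgeR called none of them, 3 had an unadjusted p under 0.05 (18% of all tested genes did), and DESeq2 called 2 lower, where it called 2.76% of all genes lower. These 2 were Gfi1b and Tef. Gfi1b, the erythroid and megakaryocyte relative of Gfi1, averaged 381 ± 195 normalised counts in Osmr-/- (SD, n = 5) and 1046 ± 608 in WT (SD, n = 6), a log2 fold change of -1.39 (adjusted p 0.129 by limma, 0.0294 by DESeq2). The sum of 15 erythroid genes was 12415 to 19468 in Osmr-/- and 20097 to 63075 in WT, without overlap, though WT 4 to 6 reached only 20097 to 22677. The part of this sum in the Gfi1b difference was not tested. Tef, a PAR-family relative of Hlf, averaged 50.4 ± 28.7 in Osmr-/- and 201 ± 136 in WT (log2 fold change -2.20, adjusted p 0.154 by limma, 0.0381 by DESeq2). Myc, the relative of Mycn, averaged 2573 in Osmr-/- and 1659 in WT, a log2 fold change of 0.52 (SE 0.33, adjusted p 0.418 by limma).

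Corepressors and partners of the factors were centred near 0. Of 30 tested cofactors, 14 were above 0 and 16 below, and the median of their log2 fold changes was -0.05 beside -0.05 for all tested genes. No cofactor was called by limma, edgeR or DESeq2, and 3 had an unadjusted p under 0.05 by limma (18% of all tested genes did). The corepressor Ctbp2, a partner of EVI1 and PRDM16, averaged 407 ± 54.4 in Osmr-/- and 249 ± 105 in WT (log2 fold change 0.78, adjusted p 0.198 by limma). The deacetylase Hdac1 averaged 324 ± 91.4 in Osmr-/- and 547 ± 170 in WT (log2 fold change -0.74, adjusted p 0.200 by limma). The MYC partner Max stood at 0.08 (adjusted p 0.920) and the MLLT3 partner Dot1l at -0.05 (adjusted p 0.967), both by limma.

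Of 13 tested genes reported as targets of the factors, 6 were above 0 and 7 below, with a median of -0.09. None was called by limma, edgeR or DESeq2, and 3 had an unadjusted p under 0.05 by limma, beside 18% of all tested genes. Cdkn1c, the cell-cycle inhibitor p57, averaged 99.1 ± 58.3 in Osmr-/- and 199 ± 54.1 in WT (log2 fold change -1.20, adjusted p 0.221 by limma). Gata2, a reported EVI1 target, stood at -0.09 (adjusted p 0.904 by limma).

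Of 34 other tested self-renewal regulators, 21 were above 0 and 13 below, with a median of 0.20. Limma and edgeR called none of them, 8 had an unadjusted p under 0.05 (beside 18% of all tested genes), and DESeq2 called 3 higher, Bmi1, Ikzf2 and Meis1, where it called 1.51% of all genes higher. Bmi1, the Polycomb component that represses the Cdkn2a locus, averaged 1618 ± 454 in Osmr-/- (SD, n = 5) and 819 ± 140 in WT (SD, n = 6). Its log2 fold change was 0.94 (adjusted p 0.104 by limma, 0.00560 by DESeq2), and in the model with the number sets its adjusted p was 0.0439 by limma. Ikzf2, which encodes the Ikaros-family factor Helios, averaged 2583 ± 678 in Osmr-/- and 1433 ± 390 in WT (log2 fold change 0.86, adjusted p 0.113 by limma, 0.0265 by DESeq2 and 0.0490 by limma in that model). That model called 2 of the 34, these 2, and 2.52% of all tested genes. Among the 8 genes of the stem cell reprogramming set, which include Hlf and Mycn and convert mouse blood progenitors toward stem cells when expressed together, 6 were above 0 and 2 below, with a median of 0.51. None passed in limma or edgeR, 3 had an unadjusted p under 0.05, and DESeq2 called 1, the homeobox gene Meis1. Meis1 averaged 4657 ± 363 in Osmr-/- and 3241 ± 517 in WT, and every Osmr-/- library (4267 to 5140) was above every WT library (2778 to 4200). Ikzf2 was also without overlap (2066 to 3771 in Osmr-/-, 969 to 2022 in WT), and Bmi1 overlapped (866 to 1979 in Osmr-/-, 685 to 997 in WT). A separation over all libraries with Osmr-/- higher was found for 1.09% of all tested genes. Within numbers 1 to 3 the log2 fold changes were 1.16 for Bmi1, 1.31 for Ikzf2 and 0.57 for Meis1. Within numbers 4 to 6 they were 0.58, 0.35 and 0.51. The log2 fold change of Meis1 was 0.53 (adjusted p 0.154 by limma, 0.0247 by DESeq2).

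**Figure D5:**
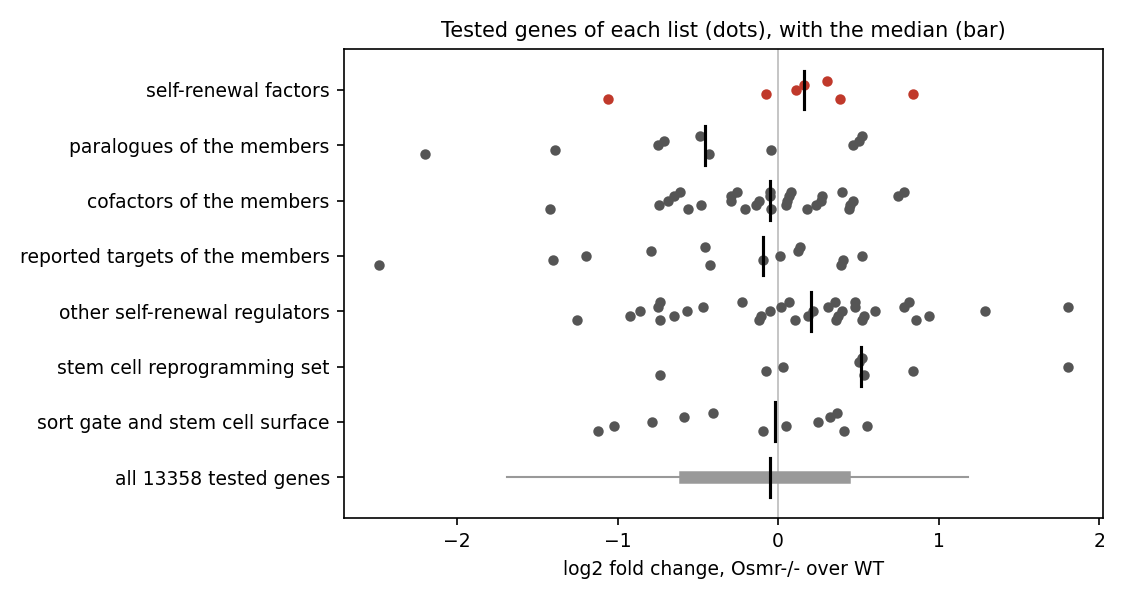
Log2 fold change of Osmr-/- over WT (x axis) for the tested genes of each list; dots are genes and black bars medians. For all 13358 tested genes the thick line spans the 25th to 75th percentile and the thin line the 5th to 95th (-1.69 to 1.18). The factors in red centre at 0.16, paralogues at -0.46 and the reprogramming set at 0.51, beside -0.05 for all genes.

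Among the surface genes of the sort, the tests placed 6 above 0 and 6 below, with a median of -0.02. None was called by limma or edgeR, and 2 had an unadjusted p under 0.05 by limma, beside 18% of all tested genes. DESeq2 called 1 lower, the adhesion gene Esam, where it called 2.76% of all genes lower. Esam averaged 252 ± 108 in Osmr-/- and 528 ± 158 in WT (log2 fold change -1.12, adjusted p 0.141 by limma, 0.0497 by DESeq2). Procr, which encodes the stem-cell marker EPCR, averaged 323 ± 130 in Osmr-/- and 543 ± 130 in WT (log2 fold change -0.79, adjusted p 0.182 by limma). Slamf1, which encodes CD150, stood at -1.02 (adjusted p 0.334 by limma), and Kit at 0.25 (adjusted p 0.476 by limma). The part of sort composition in the values of the factors was not tested.

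Counting could touch 4 of the factors, because genes on the opposite strand share exon bases with them. The shared stretches cover 81 bases of Mecom (0.652% of its exons, with Mecomos), 109 of Prdm16 (1.17%, with B230104I21Rik), 101 of Gfi1 (3.17%, with A430072P03Rik) and 135 of Etv6 (2.26%, with Gm17089). The sources used here do not say whether strand was used in counting, so reads in these stretches are uncertain.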

How the data were processed

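Gene expression was measured by RNA-seq of SMART-Seq v4 cDNA (13 to 18 PCR cycles, then 12 for the library), per the labels. The tools named in the submitters' processing notes are Trimmomatic 0.36.6, FastQC 0.72, HISAT2 2.1.0 on mm10, HTSeq 0.9.1 and a DESeq2 wrapper 2.11.40.6. For annotation and strand setting the sources used here give nothing. The deposited signal is a normalised read count, which its values show to be whole counts divided by 1 factor per library. Other deposited tables hold log2 scale values (regularised and variance stabilised) and the authors' comparison without column names. Checks on its values showed a log2 fold change, standard error, Wald score, p-value and adjusted p-value, as deposited. All 615 of its called genes carry the sign of WT minus Osmr-/-, so its fold changes were turned.

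Every value was a whole multiple of the library's smallest step (100% of values within 0.01 of a whole number of steps), which gave back reads. Totals are in the report, and 3 reads is the floor for a count of 0. Intervals on counts cover counting error only. The test used log2(normalised count + 1) of the 13358 genes with at least 10 normalised counts in at least 5 libraries, with limma 3.58.1 in R 4.3.3 (trend, genotype alone, two-sided, Benjamini-Hochberg, threshold 0.05). The added 1 shrinks fold changes of low genes, but a library near 0 can enlarge them beyond those of a count model. It was tested on simulated data. The count tools were edgeR 4.0.16 and DESeq2 1.42.0. Alternatives were pseudocounts, filters, scalings, the authors' log2 values, array weights, label number as a block or set, and leaving out libraries. The numbers 1 to 3 and 4 to 6 were set against each other from the data, and the alternatives of that comparison were added after seeing the data. The factors and lists were chosen with earlier results of these data known. Genes named are the 8 factors, the genes past the threshold or otherwise the 2 of lowest p in each list, and the 2 genes closest to each factor. A gene that this rule names is not reported here. Max, Dot1l, Myc, Gata2, Malat1 and the granulocyte genes of Osmr-/- 3 were added after their values were seen. The label numbers were not treated as pairs in the main test. The correlation of deviations of same-numbered libraries ran from 0.0203 to 0.0986, which cannot show whether they were paired. The best match in the other genotype of each library numbered 1, 2, 3, 5 or 6 lay in its own number set.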

Additional observations from a re-analysis of the deposited data

Results flagged for a closer look

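In 3 of the 16 groups of libraries checked, 1 library stood far from the others of its group. Normally spread values give about 1 in 20 groups, a rate that does not hold for genes with few reads. Prdm16 in Osmr-/- 2 had 1.18 normalised counts, with 74.8 to 181 in the other Osmr-/- libraries. Zbtb16 in Osmr-/- 2 had 13.0 normalised counts and no reads in the other Osmr-/- libraries, so any reads there would have been flagged. Mllt3 in WT 6 had 3373 normalised counts, with 2004 to 2188 in the other WT libraries.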

How the results depend on the processing

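The genotype log2 fold change of the 7 tested factors was recomputed under 26 alternatives each. In 173 of 182 combinations the direction was kept, in 9 it reversed, and in 0 did a factor pass the threshold; the lowest adjusted p was 0.0536 (Mycn, DESeq2). The reversals were Hlf at 0.14 in numbers 1 to 3 alone, Prdm16 at 0.21 and Gfi1 at -0.62 in numbers 4 to 6 alone, and single libraries left out. Over those the range was -0.21 to 0.047 for Hlf (above 0 without Osmr-/- 2, WT 5 or WT 6), -1.47 to 0.12 for Prdm16 (Osmr-/- 2), -0.11 to 0.40 for Gfi1 (Osmr-/- 3) and -0.061 to 0.21 for Etv6 (Osmr-/- 6). The Zbtb16 difference was 0.34 in numbers 1 to 3 alone and -2.57 in numbers 4 to 6 alone, and -1.75 to -0.60 without single libraries. For Mycn the range without single libraries was 0.58 to 1.01.

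Counts over all genes were less stable than these values. In place of 1 gene higher and 2 lower, the calls were 1 lower with a pseudocount of 0.5, with edgeR and with array weights, 13 and 42 with a pseudocount of 10, 0 and 0 without a filter, with a filter at 50 and in either number set alone, 14 and 42 after quantile scaling, 18 and 51 on regularised and 17 and 49 on variance stabilised values, 238 and 436 with DESeq2, and 133 and 204 with the number set covariate. Leaving out 1 library gave 0 to 30 higher and 0 to 92 lower, the most without WT 6. The cause was not tested. With label number as a replicate block, limma called 0 and 0 genes (2418 at an unadjusted p under 0.05), and Mycn stood at 0.78 with an adjusted p of 0.183.

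For numbers 4 to 6 over 1 to 3, the 348 genes higher and 626 lower became 177 and 337 without a filter, 337 lower after quantile scaling, 645 and 1009 with array weights and 879 and 1124 with DESeq2, and 117 to 472 and 266 to 757 without single libraries. Mecom passed in 10 of 22 alternatives. Gfi1 ranged from -0.068 (without WT 6) to 0.44 without single libraries. The difference of the genotype effect between the sets was counted by its sign. DESeq2 called 186 genes with a higher log2 fold change in numbers 4 to 6 and 83 with a lower one. Leaving out 1 library gave 0 higher and 0 to 1 lower. Low reads limit Zbtb16, Prdm16 and Gfi1, and 5 and 6 libraries limit every factor.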
